A study of Rattus norvegicus with 28 samples.

Results

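Nes, Prom1, Msi1, Cd24, Dcx, Ncam1 and Pdgfra are genes used to recognise neural stem cells, newly formed neurons and glial precursors, and they were followed here in injured rat spinal cord. They were found by their names in the annotation of the array. All 7 were present, among 35469 features that stand for genes, transcripts or unnamed sequences. The animals were adult female Sprague Dawley rats, and RNA came from a piece of thoracic cord about 1.5 cm long. T0 cords are called sham in the sample labels and uninjured in the study's text. A severe contusion of 250 kdyn at thoracic level 8 preceded the other groups, and cords were taken 1, 2, 4 and 8 weeks later (T1, T2, T4 and T8). Neural progenitor cells (NPCs) were injected into the cord in a further pair of groups, right after injury with tissue taken at week 1 (T1_NPC), or at week 1 with tissue taken at week 2 (T2_NPC). Those cells had been grown as neurosphere-like cultures, with EGF and bFGF, from adult cords that had themselves been injured. The study's methods state that injured controls received an equal volume of medium without cells, and do not name the groups. The immunosuppressant FK-506 was given from the day before transplantation, and the sources differ on whether animals without a transplant received it. Each group had 4 arrays, named by the study as biological replicates, and the source label of T2_NPC gives a slightly different thoracic segment from that of T0.

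In the adult spinal cord, cells around the central canal, called ependymal cells, can divide after injury and can form neurospheres in culture. Oligodendrocyte precursors are the other large population of dividing neural cells, spread through grey and white matter. The genes studied here are shared by several cell types, so a level in whole tissue does not by itself name a cell. Nestin (Nes) is an intermediate filament protein of neural stem cells that is also made by reactive astrocytes, Schwann cells and growing blood vessels. Fewer cells of a type and less RNA per cell cannot be told apart in whole tissue.

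For 16 of the 28 arrays, the deposited scanner output and the deposited table of normalised values name different samples. Every column of the value table had the same rank order as exactly 1 scanner output, and for those 16 arrays that output was filed under another sample. All 4 T1_NPC arrays were among them. The values given here come from the value table, whose columns carry the sample names, and Nes, Cd24 and the other genes are also given on the 12 arrays without a conflict. Of those, T0, T2 and T8 had 2 arrays each, T1 and T4 had 1 each, T2_NPC had 4 and T1_NPC had 0. A single array has no spread of its own, and limma assumes that it varies like the other groups, so values at T1 and T4 on these arrays are given with no call. With the scanner outputs under the samples they were filed with, 0 of the 7 genes were called in any comparison, and from 0 to 831 of the 35469 features were called (up to 2.34%, in T2_NPC against T0). Between 74.5% and 82.7% of spots were well above background on an array, and none was saturated. The share was 74.5% to 76.4% on the T1_NPC arrays and 79.0% to 81.9% on the T1 arrays. It was 75.1% on T2 replicate 3. By the matched scanner outputs, T0, T1, T2, T4 and T8 were spread over scan sessions 1 and 2. In these groups the session 1 arrays were those without a conflict, and every session 2 array had one. The T1_NPC and T2_NPC arrays each filled a slide of their own in session 3. Transplantation, slide and scan session therefore cannot be told apart.

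The array read these genes through 60-base probes, whose rat coordinates refer to build rn4. A single probe for Ncam1, the neural cell adhesion molecule, was printed 10 times on each array and lies at chr8:52825923-52826918 on the minus strand, across an intron. It matches the part of the coding sequence that makes the cytoplasmic tail of the membrane-spanning forms, which the lipid-anchored form lacks. The Msi1 probe lies at chr12:42436578-42437359 on the minus strand and crosses an intron in the coding sequence of an RNA-binding protein. One of the Prom1 probes, for the membrane protein CD133, lies at chr14:72194242-72195100 on the plus strand and also crosses an intron. These 3 are shown because an intron between their ends ties them to spliced coding RNA.
Ncam1 A_44_P288231: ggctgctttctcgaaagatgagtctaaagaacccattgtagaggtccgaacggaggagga
Msi1 A_44_P280755: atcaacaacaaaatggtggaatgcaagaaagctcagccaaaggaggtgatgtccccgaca
Prom1 A_43_P12115: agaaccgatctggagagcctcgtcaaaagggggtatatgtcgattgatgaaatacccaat
Nes was read by probes at chr2:180060663-180060722 and chr2:180060869-180060928, and Cd24 by probes at chr20:47507359-47507419 and chr20:47507471-47507530. Another Prom1 probe lies at chr14:72230062-72230121, the Dcx probe at chrX:34672024-34672079 and the Pdgfra probe at chr14:35369708-35369767 on the minus strand. All of these probes were well above background on all 28 arrays except that of Msi1, which was so on 27, the exception being T1_NPC replicate 2. Levels of different genes were not set against each other, since probes differ in their brightness per molecule.

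One week after injury, all 7 genes differed from T0, and they did so in opposite directions. Nes was 4.70-fold higher and Ncam1 and Pdgfra were also higher, whereas Dcx, Prom1, Msi1 and Cd24 were lower. From week 2 the level of Cd24 was above that of T0, so that its direction turned, while Nes, Ncam1 and Pdgfra stayed higher and Dcx lower up to week 8. A gene is called where the adjusted p of limma's moderated test across all 35469 features is under 0.05. In T1 against T0, 7 of 7 were called, beside 44.1% of all features. The count was 5 of 7 at T2 (40.0% of all features), 5 of 7 at T4 (38.5%) and 5 of 7 at T8 (39.7%), and Prom1 and Msi1 were the genes not called at each of these later times.

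**Figure D1:**
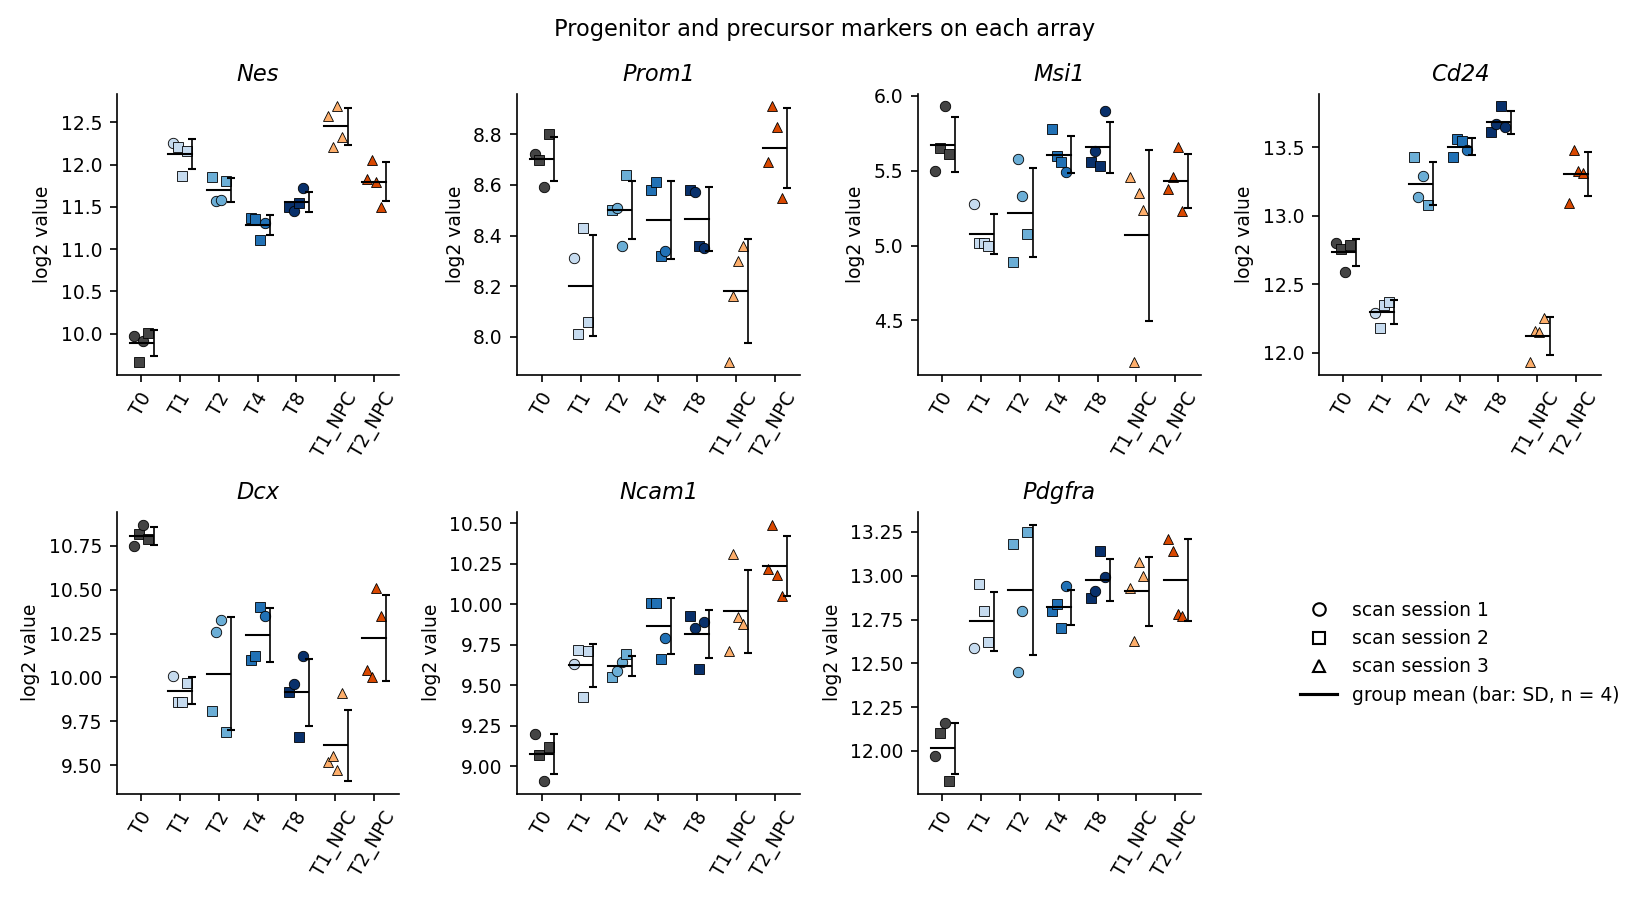
Log2 values of the 7 genes on each of the 28 arrays, with a panel for each gene and the 7 groups along the horizontal axis. Points are arrays, shaped by scan session, and lines and bars are group means and SDs (n = 4). Nes lies between 9.66 and 10.01 in T0 and between 11.11 and 12.25 in T1 to T8, and Cd24 falls below its T0 values at T1 and lies above them from T2.

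Nes, the intermediate filament gene, showed the largest differences from T0 of the 7. Its log2 values were 9.97, 9.66, 9.91 and 10.01 on the T0 arrays and 12.25, 12.21, 11.86 and 12.16 on the T1 arrays. They were 11.85, 11.57, 11.58 and 11.80 at T2. Later they were 11.37, 11.36, 11.11 and 11.31 at T4 and 11.50, 11.45, 11.55 and 11.72 at T8. The lowest injured array therefore lay above the highest T0 array, by more than the spread of any group. On the log2 scale, Nes rose by 2.23 at T1 (SE 0.13, adjusted p = 2.15e-12), and the rises at the later times were 1.81 (T2), 1.40 (T4) and 1.66 (T8). The rise had shrunk by week 8, since Nes was lower at T8 than at T1 (log2 difference -0.57, SE 0.13, adjusted p = 0.0048), although only 9.87% of all features were called in that comparison. Under scaling to the 75th percentile, 65.9% of the features called at T8 against T1 were higher at T8, compared with 55.2% in the value table. The 2 Nes probes gave rises of 2.33 and 2.14 at T1. On the 12 arrays without a conflict Nes was 1.63 higher at T2 (adjusted p = 0.000635) and 1.64 higher at T8 (adjusted p = 0.00052), with 2 arrays against 2. The single T1 array there stood 2.31 above T0, and T8 lay 0.67 below that array (log2 difference -0.67).

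Cd24 encodes a small lipid-anchored glycoprotein found on ependymal cells and immature neurons, and also on several kinds of blood cell. Its log2 values were 12.80, 12.76, 12.59 and 12.79 at T0 and 12.29, 12.18, 12.35 and 12.37 at T1. At T2 they were 13.43, 13.14, 13.29 and 13.08. At T4 they reached 13.43, 13.56, 13.55 and 13.48, and at T8 13.61, 13.67, 13.80 and 13.65. Every T1 array lay below every T0 array, and every array of T2, T4 and T8 above. The log2 difference from T0 went from -0.44 at T1 (SE 0.10, adjusted p = 0.000803) to 0.50 (T2), 0.77 (T4) and 0.94 (T8, adjusted p = 6.23e-08). Between T1 and T2 Cd24 rose by 0.93 (SE 0.10, adjusted p = 2.15e-05), the only one of the 7 genes called in a comparison where 1.48% of all features were. From T1 to T8 the rise came to 1.38 (SE 0.10, adjusted p = 8.07e-09). Both probes turned in the same way, from -0.38 and -0.49 at T1 to 0.97 and 0.92 at T8. On the arrays without a conflict Cd24 was 0.52 higher at T2 (adjusted p = 0.0291) and 0.96 higher at T8 (adjusted p = 0.00192), with 2 arrays against 2. Its fall at T1 and its rise from T1 to T2 rest there on 1 T1 array, with differences of -0.40 and 0.92.

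Prom1, whose protein CD133 sits on membrane protrusions of stem and ependymal cells, fell at T1. Its log2 values lay between 8.59 and 8.80 at T0 (median 8.71) and between 8.01 and 8.43 at T1 (median 8.19), without overlap. The log2 difference was -0.50 (SE 0.12, adjusted p = 0.00131). At T2, T4 and T8 the differences from T0 were -0.20, -0.24 and -0.24, none of which was called, and the groups overlapped with T0 at T2 and T4. At T8 the 95% interval ran from -0.48 to 0.01, and the second of its probes alone was called there, at -0.32 (adjusted p = 0.0385). Msi1, an RNA-binding protein that keeps neural stem cells from differentiating, also fell at T1, by 0.59 (SE 0.20, adjusted p = 0.0166). The T0 arrays gave 5.50, 5.65, 5.93 and 5.61 and the T1 arrays 5.28, 5.02, 5.02 and 5.00, again without overlap, and leaving out T0 replicate 3 ended the call (adjusted p = 0.0612). Its differences were -0.45 (T2, adjusted p = 0.0716), -0.06 (T4) and -0.02 (T8), and the interval at T8 ran from -0.42 to 0.39. The difference of 0.57 between T8 and T1 was not called (adjusted p = 0.0668) and was called under 6 alternatives. These were the slide as a block (0.55, adjusted p = 0.00642), the scan session as a block (0.53, adjusted p = 0.00605), the time-course arrays alone (adjusted p = 0.0107), only the arrays of the groups compared (adjusted p = 0.0255), scaling to the 75th percentile (0.84, adjusted p = 0.0161) and normexp (0.17, adjusted p = 0.0263). On the single T1 array without a conflict the differences from T0 were -0.34 for Prom1 and -0.43 for Msi1.

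Dcx makes doublecortin, a microtubule protein of migrating neuroblasts and young neurons. The T0 arrays gave log2 values of 10.75, 10.82, 10.87 and 10.79, the tightest of its groups. T1 gave 10.01, 9.86, 9.86 and 9.97, and T2 gave 9.81, 10.26, 10.33 and 9.69. The T4 arrays stood at 10.10, 10.12, 10.40 and 10.35, those of T8 at 9.92, 9.96, 9.66 and 10.12. No injured array reached the lowest T0 array. The log2 difference was -0.88 at T1 (SE 0.14, adjusted p = 2.45e-05), which is 1.84-fold lower, -0.79 (T2), -0.56 (T4) and -0.89 (T8, adjusted p = 2.47e-05). Within scan sessions 1 and 2 it was -0.52 and -1.05 at T2, the first of these from the arrays without a conflict. On the arrays without a conflict Dcx was called at T8 (-0.77, adjusted p = 0.0125) but not at T2 (-0.52, adjusted p = 0.0618). The single arrays of T1 and T4 there gave -0.80 and -0.46.

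Ncam1, the adhesion molecule that carries polysialic acid on migrating precursors, and that mature neurons, glia and Schwann cells also make, rose after injury. Its log2 values were 9.20, 9.07, 8.91 and 9.12 at T0 and 9.63, 9.72, 9.43 and 9.71 at T1. T2 gave 9.55, 9.59, 9.64 and 9.69, T4 gave 10.01, 10.01, 9.66 and 9.79, and T8 gave 9.93, 9.85, 9.60 and 9.89. All 16 injured arrays lay above all T0 arrays. On the log2 scale the rise was 0.55 at T1 (SE 0.12, adjusted p = 0.000855), 0.54 (T2), 0.79 (T4) and 0.74 (T8, adjusted p = 3.79e-05). On the arrays without a conflict Ncam1 was called at T2 (0.56, adjusted p = 0.029) and T8 (0.82, adjusted p = 0.00554), and the single arrays of T1 and T4 gave 0.58 and 0.74.

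Pdgfra encodes the receptor for platelet-derived growth factor that marks oligodendrocyte precursors, and fibroblasts carry it too. The T0 arrays gave 11.97, 12.10, 12.16 and 11.83, below all 16 injured arrays. Values were 12.59, 12.95, 12.80 and 12.62 at T1 and 12.87, 12.91, 13.14 and 12.99 at T8. T2 had the widest spread, with 13.18, 12.45, 12.80 and 13.25, and T4 lay between 12.70 and 12.94. The log2 rise was 0.72 at T1 (SE 0.15, adjusted p = 0.000393), 0.90 (T2), 0.80 (T4) and 0.96 (T8, adjusted p = 1.73e-05). Within scan session 1, whose arrays are those without a conflict, the difference at T2 was 0.56, compared with 1.25 in session 2. On the arrays without a conflict Pdgfra was called at T8 (0.88, adjusted p = 0.00928) but not at T2 (0.56, adjusted p = 0.0599), and the single arrays of T1 and T4 gave 0.52 and 0.87.

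**Figure D2:**
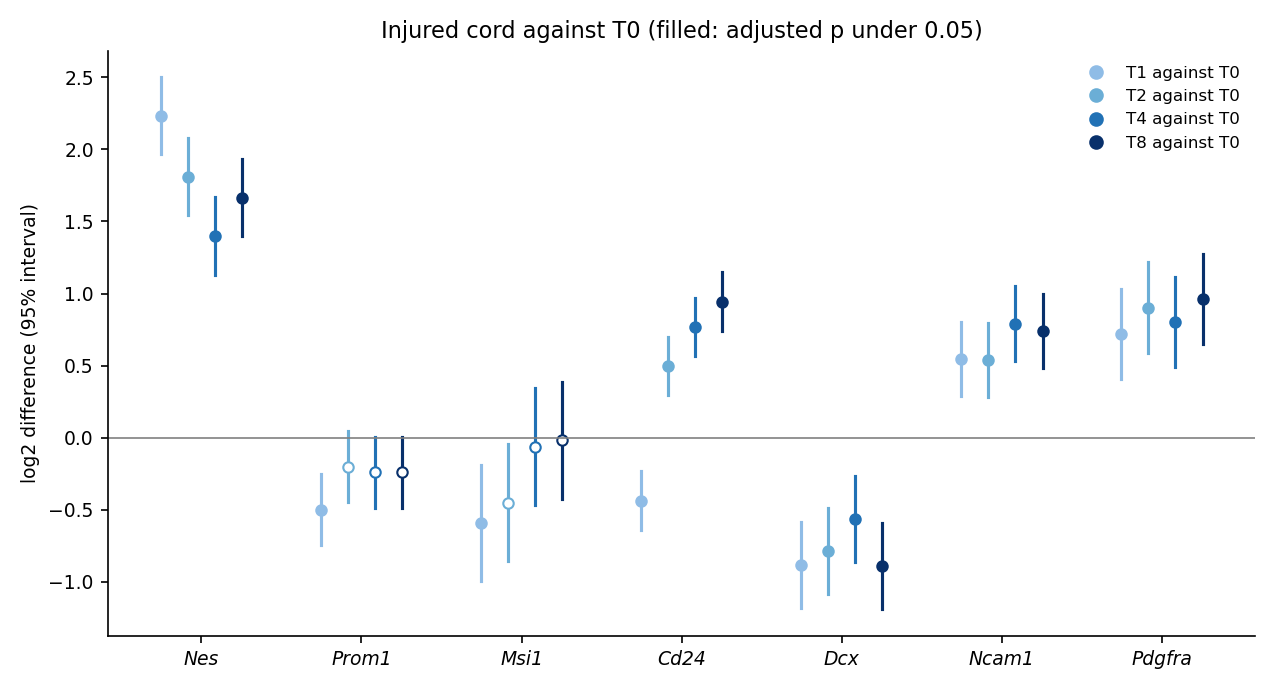
Log2 differences from T0 at T1, T2, T4 and T8 for each of the 7 genes, with 95% intervals from the fit on all 28 arrays. Filled points have an adjusted p under 0.05. Nes is highest throughout (1.40 to 2.23), Dcx is below 0 at each time, and Cd24 passes from -0.44 at T1 to 0.94 at T8.

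**Figure D3:**
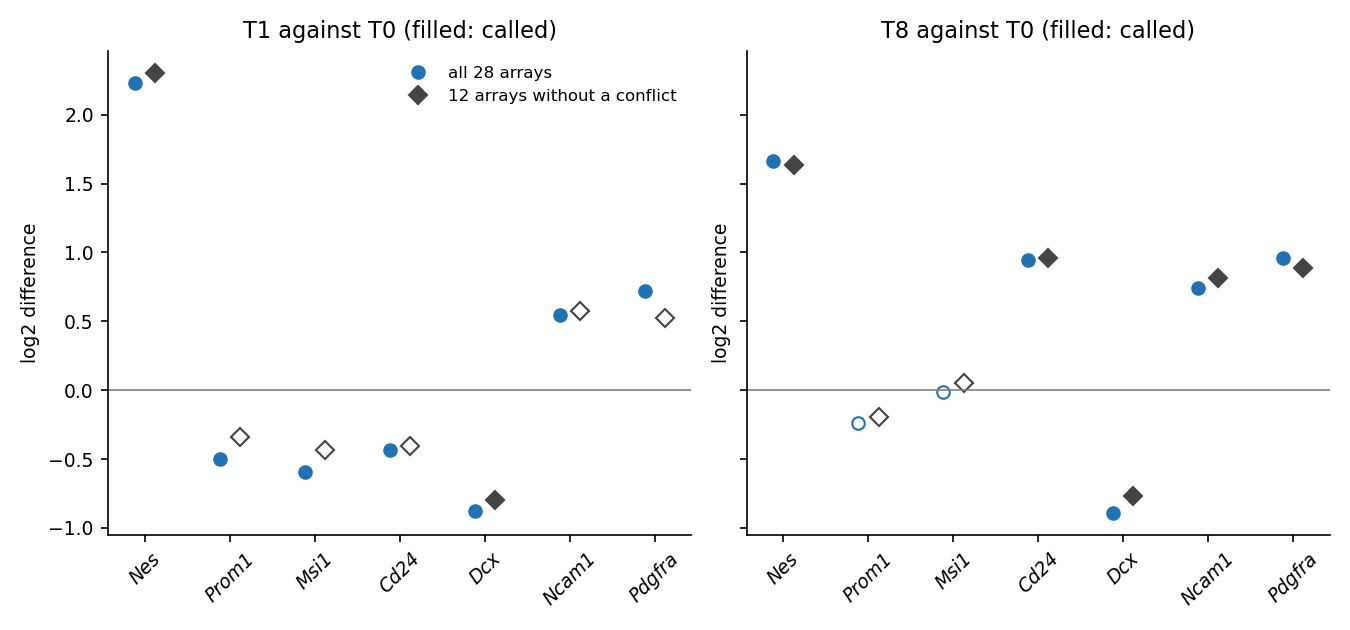
Log2 differences from T0 at T1 (left) and T8 (right) for the 7 genes, on all 28 arrays (circles) and on the 12 arrays without a conflict between scanner output and value table (diamonds). Filled symbols have an adjusted p under 0.05. The diamonds at T1 rest on 1 T1 array, which has no spread of its own, so their fill is not taken as a call. At T1 each diamond lies on the same side of 0 as its circle, and at T8, with 2 arrays against 2, the same 5 genes are called in both.

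On the single T1 array without a conflict all 7 genes had the direction they had on all arrays. Within each scan session, every difference from T0 called on all arrays had the same sign (1 to 3 injured and 2 T0 arrays). The values of session 1 are those of the arrays without a conflict, so they are no separate check. All session 2 arrays were in conflict. Among the 4 injured groups alone, an F test called 2 of 7 genes, Nes (adjusted p = 0.000824) and Cd24 (adjusted p = 2.76e-08), beside 7.73% of all features. No gene of the 7 was called between T2 and T4, where 0.0761% of all features were, or between T4 and T8, where 0.0902% were. At an unadjusted p under 0.05 limma called 3198 and 1716 features in these comparisons, against 27 and 32 after adjustment. For Pdgfra the difference between T8 and T4 was 0.16, with an interval from -0.15 to 0.47, and for Ncam1 it was -0.05, from -0.31 to 0.21.

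The transplanted cells were themselves progenitors from injured cord, and the next comparison asks whether these genes differed between injured cords with and without them. After acute transplantation, 0 of 7 genes were called in T1_NPC against T1, beside 11.9% of all features. Scaling to the 75th percentile raised the share of these calls that were higher from 45.8% to 71.3%, with 0 of the 7 genes called. After subacute transplantation Ncam1 alone was called in T2_NPC against T2, 1 of 7 beside 9.47% of all features. Its log2 values were 10.22, 10.49, 10.18 and 10.05 with the cells and 9.55, 9.59, 9.64 and 9.69 without. The groups did not overlap, and the rise was 0.62 (SE 0.12, adjusted p = 0.00299). It was called again in each of 8 fits without 1 of the arrays (adjusted p up to 0.0176). It was also called on the arrays without a conflict (0.62, adjusted p = 0.0189). The T2_NPC arrays share a slide in session 3 that holds no T2 array, so these fits cannot tell the cells from slide or session.

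In T1_NPC the Ncam1 values were 9.71, 10.31, 9.92 and 9.88, a log2 difference of 0.33 from T1 that was not called (adjusted p = 0.0839) and that was called without T1_NPC replicate 1 (0.41, adjusted p = 0.0354). The difference between the acute and subacute effects on Ncam1 was -0.29 (SE 0.18), and 0 of 7 genes were called for it, beside 0.299% of all features. At an unadjusted p under 0.05 limma called 9518 features in T1_NPC against T1 and 3969 for the difference of the effects. Nes values were 12.58, 12.21, 12.69 and 12.33 in T1_NPC, 0.33 above T1 without being called (adjusted p = 0.0962), with an interval from 0.06 to 0.60. In T2_NPC they were 11.83, 12.06, 11.79 and 11.50, which overlapped those of T2, and the difference of 0.10 had an interval from -0.17 to 0.36. For Dcx the differences were -0.31 in the acute and 0.20 in the subacute comparison (adjusted p = 0.164 and 0.423), and for Pdgfra 0.17 and 0.06 (adjusted p = 0.502 and 0.879). Cd24 differed by -0.18 and 0.07 and Prom1 by -0.03 and 0.25, none of them called. The normexp background correction called Cd24 (-0.27, adjusted p = 0.041) and Ncam1 (0.29, adjusted p = 0.048) in T1_NPC against T1. Msi1 was 4.22 on T1_NPC replicate 2, where its probe was not well above background, and 5.24 to 5.46 on the other 3 arrays of that group.

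**Figure D4:**
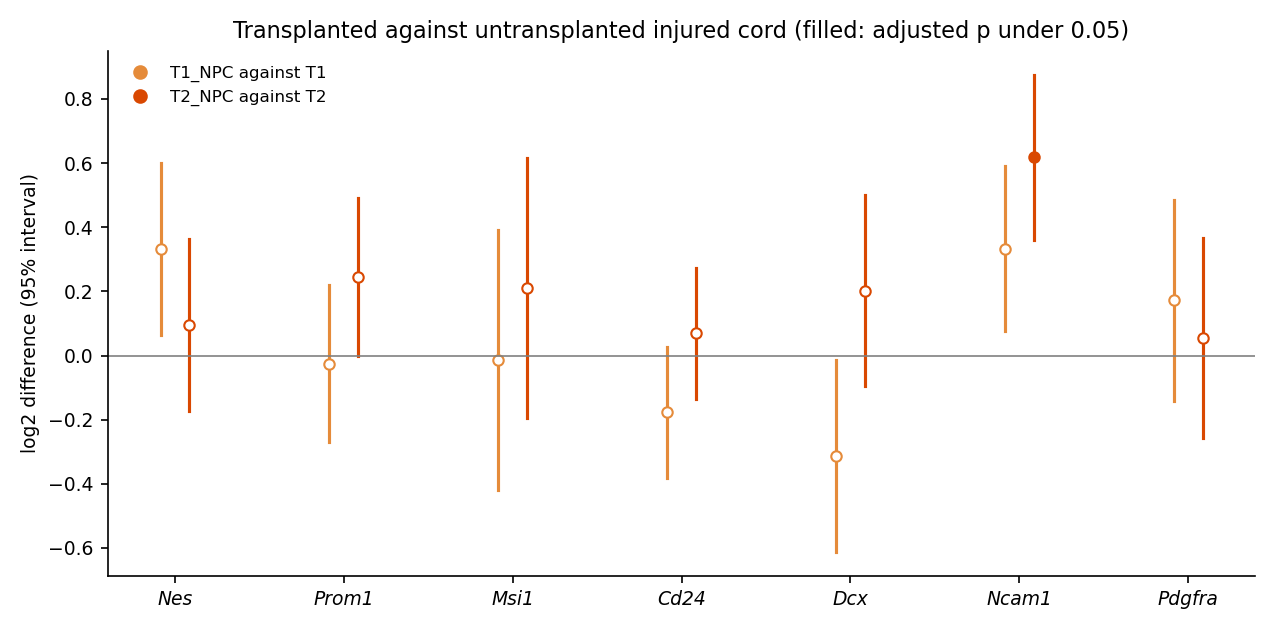
Log2 differences between transplanted and untransplanted injured cord at week 1 (T1_NPC against T1) and week 2 (T2_NPC against T2), with 95% intervals. Filled points have an adjusted p under 0.05. Ncam1 at week 2 is the single filled point, at 0.62.

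Against T0, transplanted cord gave calls for 7 of 7 genes in T1_NPC (52.7% of all features) and 5 of 7 in T2_NPC (47.7%). These comparisons share the T0 arrays with those of injured cord without cells. In T1_NPC the log2 differences were 2.57 for Nes, 0.89 for Pdgfra and 0.88 for Ncam1, and -1.19 for Dcx, -0.61 for Cd24 and -0.53 for Prom1. Msi1 differed by -0.60 (adjusted p = 0.0123), and without T1_NPC replicate 2 the difference was -0.32 and no longer called (adjusted p = 0.0669). In T2_NPC the differences were 1.91 for Nes, 1.16 for Ncam1, 0.96 for Pdgfra, 0.57 for Cd24 and -0.58 for Dcx. Prom1 and Msi1 were not called there, at 0.04 and -0.24.

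Ordered by group mean, Nes was highest in T1_NPC (12.45 ± 0.22, SD, n = 4), followed by T1 (12.12), T2_NPC (11.80), T2 (11.70), T8 (11.55), T4 (11.29) and T0 (9.89 ± 0.16). Neighbours in that order overlapped except T8 with T4 and T4 with T0. Cd24 ran from T8 (13.68 ± 0.08) through T4 (13.50), T2_NPC (13.30), T2 (13.23), T0 (12.74) and T1 (12.30) to T1_NPC (12.12 ± 0.14), with gaps between T8 and T4, T2 and T0, and T0 and T1. For Dcx, T0 (10.81 ± 0.05) lay apart, and T4 (10.24), T2_NPC (10.22), T2 (10.02), T1 (9.93), T8 (9.92) and T1_NPC (9.61 ± 0.20) overlapped in turn. For Ncam1, T2_NPC (10.23 ± 0.18) came first, then T1_NPC (9.96), T4 (9.87), T8 (9.81), T1 and T2 (both 9.62), and T0 (9.07 ± 0.12) lay apart from the rest. Pdgfra had its lowest mean in T0 (12.02 ± 0.14), and its other groups, from 12.74 in T1 to 12.98 in T8, overlapped. Neighbouring groups all overlapped for Prom1, from T2_NPC (8.75) to T1_NPC (8.18), and for Msi1, from T0 (5.67) to T1_NPC (5.07).

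Other genes of neural stem cells and radial glia moved in both directions at T1. Of 15 such genes, 13 were found, and 4 were higher and 3 lower than T0, beside 19.1% of all features higher and 25.1% lower. Vim, the filament protein that assembles with nestin, rose by 4.28 on the log2 scale (SE 0.23, adjusted p = 5.34e-13). Fut4, which makes the stem cell sugar epitope LeX, rose by 1.81, the Notch target Hes1 by 1.31 and the EGF receptor Egfr by 0.88. Hes5, another Notch target, fell by 1.19, the glial factor Sox9 by 0.62 and Msi2, the relative of Msi1, by 0.32. The list's median was -0.11, compared with -0.10 over all features. At T8, 7 were higher and 1 lower, beside 18.2% and 21.5% of all features, with a median of 0.49 against -0.045. Fabp7 (1.07), Pax6 (0.67) and Sox2 (0.49), genes of radial glia and stem cells, were higher at T8 though not called at T1, and Hes5 was still lower, at -1.42. Between T1 and T8 themselves, 4 of the 13 rose, namely Sox9, Pax6, Fabp7 and Msi2, beside 5.45% of all features higher and 4.42% lower at T8.

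Ependymal genes gave 1 higher and 4 lower at T1 among 8 (median -0.59), beside 19.1% of all features higher and 25.1% lower. Tmem212, Ccdc153 and Spag6, genes of motile cilia, fell by 1.38, 1.26 and 1.16, although the Spag6 probe was well above background on 15 arrays only. Mia fell by 0.95, and the lipid transfer protein gene Pltp rose by 1.85. At T8, 3 were higher and 1 lower (median 0.23), beside 18.2% and 21.5% of all features. Foxj1, the master factor of motile cilia, stood at 1.19 and Rsph1 at 0.91. Foxj1, Tmem212, Rsph1 and Ccdc153 were higher at T8 than at T1, beside 5.45% of all features. Cd24 was lower at T1 and higher from T2 in the same cords, by 0.50 at T2. The ependymal median was still -0.47 at T2 and was 0.04 at T4. At T2, Foxj1 (0.83) and Pltp (1.79) were higher than T0, and Ccdc153 (-0.66) and Mia (-1.04) were lower. The part of ependymal cells in the level of Cd24 was not tested. After acute transplantation Foxj1 was lower than in T1 (-0.68, adjusted p = 0.00909), as was Spag6 (-1.26, adjusted p = 0.0417), 2 of 8 beside 6.46% of all features lower, and 5.45% were higher.

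**Figure D5:**
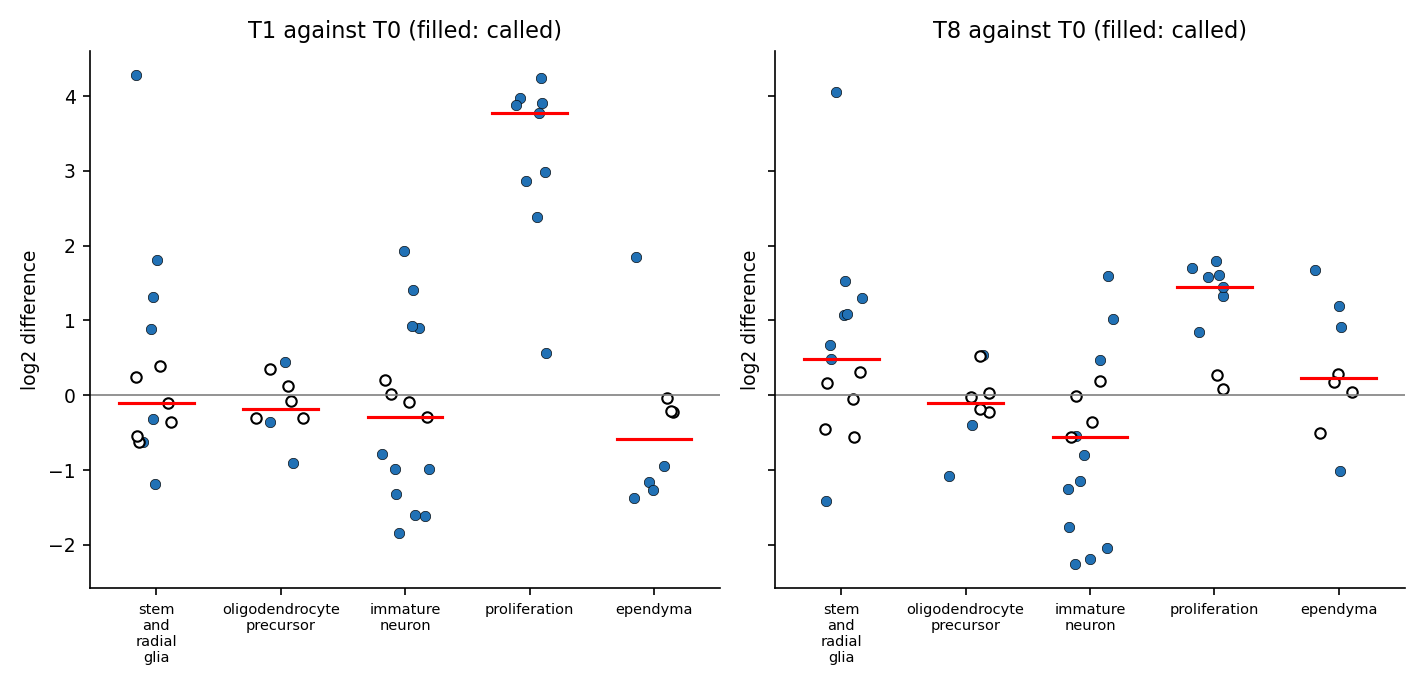
Log2 differences from T0 at T1 (left) and T8 (right) for the measured genes of 5 lists, where each point is a gene, filled where called, and the red line is the list's median. Proliferation genes have a median of 3.77 at T1 and 1.45 at T8, and the ependymal list moves from -0.59 to 0.23.

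Among 15 genes of immature neurons, 4 rose and 7 fell at T1 (median -0.29), beside 19.1% of all features higher and 25.1% lower. Stmn1, Stmn2 and Tubb3, microtubule genes of this list, fell by 0.99, 1.32 and 0.98. Tubb2b (0.02), Gap43 (-0.29), Neurog2 (-0.09) and St8sia2 (0.20) were not called. Neuron markers were lower in 6 of 6 at T1, and the part of young neurons in these falls or in that of Dcx was not tested. The RNA-binding protein genes Elavl3 and Elavl4 fell by 0.79 and 1.60 and the calcium-binding Calb2 by 1.84. Sox4 and Sox11, factors of newborn neurons that other cells also make, rose by 1.93 and 0.90, Dpysl3 by 0.93 and St8sia4 by 1.41. St8sia4 and St8sia2 are the enzymes that put polysialic acid on the Ncam1 protein. At T8 St8sia2 was 1.02 higher than T0 (adjusted p = 0.0016, well above background on 22 arrays) and St8sia4 0.19 (adjusted p = 0.742). In all, 3 of the 15 were higher and 8 lower at T8 (median -0.56), beside 18.2% and 21.5% of all features.

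Of 10 genes of oligodendrocyte precursors besides Pdgfra, 8 were found. At T1 the proteoglycan gene Cspg4 (NG2) rose by 0.44, Olig1 fell by 0.91 and Sox10 by 0.36, and the other 5 were not called (median -0.19). At T8 Cspg4 was 0.54 higher, and Olig1 (-1.08) and Sox10 (-0.40) were lower (median -0.10). Of all features, 19.1% were higher and 25.1% lower at T1, and 18.2% and 21.5% at T8. Olig2 differed by -0.30 and -0.23, neither called, and Pdgfa, which encodes a ligand of the Pdgfra receptor, by -0.31 (adjusted p = 0.0533) and -0.18. Between those times Pdgfa was lower than T0, at T2 (-0.42, adjusted p = 0.012) and T4 (-0.38, adjusted p = 0.0241). Fibroblast genes moved in the direction of Pdgfra, with 6 of 6 higher at T1 (median 4.72) and 6 of 6 at T8 (median 3.74). Their mean log2 level lay between 8.30 and 9.09 in T0 and between 13.34 and 14.30 in T1, and the part of fibroblasts in the level of Pdgfra was not tested.

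Genes of dividing cells were raised most at T1. All 9 found of 10 were higher than T0 (median 3.77), beside 19.1% of all features. Ccna2 rose by 4.24, Top2a by 3.97 and Cdk1 by 3.88. At T8, 7 of 9 were higher (median 1.45), beside 18.2% of all features, and 8 of 9 were lower than at T1, beside 4.42%. Mcm2 was the exception there (adjusted p = 0.0858). In T1_NPC against T1, 0 of these 9 genes and 0 of the 13 stem cell and radial glia genes were called, beside 11.9% of all features. In T2_NPC against T2, Pcna was lower (-0.47) and 3 of the 13 stem cell genes were higher, beside 4.85% of all features lower and 4.62% higher. These were Egfr (0.97, adjusted p = 0.00737), Sox2 (0.53, adjusted p = 0.0137) and Nr2e1, whose probe was not well above background on any array. None of the 8 precursor genes was called in either transplantation comparison, and of the immature neuron genes only Dpysl3 (0.54) was called, at week 2.

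Markers of the cells that could share these genes changed too. Beside them, 19.1% of all features were higher and 25.1% lower at T1, and 18.2% and 21.5% at T8. Neuron markers were lower in 6 of 6 at T1 (median -1.81) and at T8 (median -1.99), and their mean log2 level lay between 11.25 and 11.56 in T0 and between 8.70 and 10.02 in T1 to T8. Astrocyte markers gave 1 higher (Gfap, by 0.86) and 3 lower at T1, and oligodendrocyte markers 4 of 5 lower. All 6 myeloid markers were higher at both times (medians 2.75 and 2.01), as were 3 of 5 T cell and NK cell markers. Of 4 Schwann cell markers, Prx, Ngfr and Pmp22 were higher at T1 and at T8 and Sox10 was lower, and Prx, a gene of myelinating Schwann cells, was 1.92 higher at T1 and 5.33 higher at T8. The mean level of this list lay between 10.66 and 11.06 in T0 and between 12.86 and 13.10 in T8, while Ncam1 and Nes were also higher. Endothelial and pericyte markers gave 4 of 7 higher and 1 lower at T1. Of 4 skeletal muscle markers, Acta1 was 1.95 higher and Tnnc2 was lower (-3.15) at T1, and Myh4 and Ckm were well above background on 1 and 11 arrays. On each of the 28 arrays the neuron, astrocyte and oligodendrocyte markers exceeded background clearly, and the part of each cell type in the 7 genes was not tested. After transplantation 0 neuron, 0 astrocyte, 0 myeloid, 0 fibroblast, 0 Schwann cell and 0 T cell and NK cell markers were called at either time. Of all features, 11.9% were called in T1_NPC against T1 and 9.47% in T2_NPC against T2. Cldn5, a tight junction gene of endothelium, was higher at both times (0.51, adjusted p = 0.0405, in T1_NPC against T1 and 0.52, adjusted p = 0.045, in T2_NPC against T2). Of the muscle markers, Acta1 was lower in T1_NPC than in T1 (-0.66, adjusted p = 0.0423), and Myh4, whose probe was well above background on 1 array, was higher in T2_NPC than in T2 (1.81, adjusted p = 0.0257). Mbp and Mobp, of 5 oligodendrocyte markers, were 1.43 and 0.70 higher in T2_NPC than in T2, in the comparison where Ncam1 was called.

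The genes nearest to each of the 7 were found from the root mean square (RMS) difference of centred group means over the 7 groups. Of the features, 9681 had a current gene symbol and were well above background on every array. Nearest to Nes was Tubb6, a tubulin, at 0.113, beside an RMS of 0.761 for Nes itself about its mean, followed by RT1-DMa (0.12) and Fkbp10 (0.13). Cd24 (RMS 0.559) had Cbs (0.1), Angpt1 (0.12) and Rfx4 (0.121) nearest. For Dcx the nearest were Cmtm5 (0.073), Josd2 (0.092) and Akr7a3 (0.093), and for Ncam1 they were Numa1 (0.065), Rrbp1 (0.068) and Tpst1 (0.072). Pdgfra was nearest to Mxd4 and Rras (both 0.053) and then Ccnd3 (0.079). Prom1 lay next to Slco1a4 (0.033), Ints3 (0.053) and Arl2 (0.059), and Msi1 next to Kif6 (0.052), Pdk2 (0.063) and Sparcl1 (0.064). Among the 7 genes themselves, the smallest difference was that between Ncam1 and Pdgfra (0.17) and the largest that between Nes and Dcx (1.093). These distances describe 7 group means from the same arrays and carry no test.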

How the data were processed

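RNA from 28 rat spinal cords was labelled with Cy3 and hybridised to single-colour Agilent arrays. The authors deposited scanner outputs, whose processed spot intensity is background-corrected by Agilent Feature Extraction 10.7.1.1, and a table of log2 values after quantile normalisation. That table was used here, and 0 of its columns were left without a sample. Control spots were left out, the remaining 43379 spots gave 41012 probes by averaging, and probes of the same gene name were averaged into 35469 features. The members and gene lists were chosen with earlier results of these data known. The linear model, with 1 coefficient per group, took in the 28 arrays together (limma 3.58.1, R 4.3.3), with empirical Bayes moderation and Benjamini-Hochberg adjustment over all features. The p-values rest on the spread between the 4 arrays within a group, pooled for each feature over all 7 groups. Quantile normalisation makes every array share a distribution, so differences are relative to it.

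Named genes were the 7 members, genes of lists described in the text, and the 3 nearest features of each member. List genes were matched by array name or by RefSeq accession. For the cell type markers, 1 listed gene is not reported here. Alternatives covered the source and sample of the scanner outputs, arrays without a conflict, 75th percentile scaling, normexp (offset 50, on median signals, since mean signals are not in all files), dim probes (well above background on under 4 arrays), single and brightest probes, moderation, slide, scan session, replicate block, samples in the fit, and each array left out. Slides and sessions come from the scanner output matched by rank. The fit was checked on simulated independent arrays with known shifts at T1. That simulation held no effect of slide or scan session and no conflict of samples. With 4 arrays per group, their number limits the precision.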

Additional observations from a re-analysis of the deposited data

Results flagged for a closer look

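Among 49 sets of 4 arrays (7 genes in 7 groups), 1 value stood apart from the others of its group by Dixon's criterion, which chance meets in about 1 set in 20. Msi1 had a log2 value of 5.28 on T1 replicate 1, and the other 3 T1 arrays lay between 5.00 and 5.02.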

How the results depend on the processing

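Under the samples with which the scanner outputs were filed, 0 of the 7 genes were called in T1, T2, T4 and T8 against T0, T2 and T8 against T1, T2_NPC against T2, and T1_NPC and T2_NPC against T0. Signs turned there for Msi1 (0.13) and Ncam1 (-0.10) at T1 against T0, Dcx (0.002) and Ncam1 (-0.10) at T2 against T0, Nes (0.21) at T8 against T1 and Cd24 (0.52) at T1_NPC against T0. On the 12 arrays without a conflict, 3 genes were called at T2 (2 arrays against 2), beside 33.6% of all features. Comparisons with T1 rest there on 1 T1 array, so no counts are given for them. The scan session as a block called 2 genes, Cd24 and Nes (-0.42), in T2 against T1, and normexp called 2 in T1_NPC against T1. With each array left out in turn, counts were 1 to 2 in T2 against T1 (Nes without T1 replicate 3) and 0 to 1 in T1_NPC against T1. The cause was not tested. Apart from the comparisons with T1 on those 12 arrays, all other counts under the alternatives stayed within 1.5 times. Msi1 at T2 against T0 was called with the slide (-0.42) or session (-0.45) as a block, with the time-course arrays alone and without T2 replicate 2. The 75th percentile moved the median of all features at T1 against T0 from -0.10 to -0.27 and called the same number of genes there. It raised the features called in T1_NPC against T1 from 4225 to 7397. With the slide as a random block 2236 were called, and 1223 with only the arrays of the groups compared. In T2_NPC against T2 the features called went from 3359 to 1623 and 2731 under these 2 alternatives. The replicate block left 7, 5, 5 and 5 genes called against T0 and 1 in T2_NPC against T2. Deviations of same-numbered arrays from their group means correlated at -0.339 to 0.274, with no common sign. For T8 and T0 the correlations ran from -0.252 to -0.178, and for T2 and T0 from -0.174 to 0.274. A fixed block for slide could not be fitted to the transplantation comparisons. Single probes gave the same numbers of genes where a gene counts only if every probe of it was called. The brightest probe of each gene called 6 at T8 against T0, with Prom1 added (-0.32, adjusted p = 0.0389).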
